A study of Mus musculus with 9 samples.

Results

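The genes described here are 37 named genes of inflammatory signalling in liver. They are 9 cytokines, 3 cytokine receptors or antagonists, 10 chemokines, 4 NF-kB subunits, 4 NF-kB inhibitors and kinases, 3 genes of Toll-like receptor signalling, 2 adhesion molecules and 2 other induced genes. They were listed by name, and no measured value enters the rule. Each gene was read through a probe set annotated to it alone and, where it had several, through the probe set with the highest mean over all arrays. By this rule 36 of the 37 genes were measured, of 18193 genes in all. Nfkb1 was not analysed here.

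Liver RNA of KKAy mice, an obese strain that serves as a model of type 2 diabetes, was hybridised to 9 one-colour Affymetrix arrays, 3 per group. BI mice received insulin of which a part was biomineralized, and insulin mice received plain insulin. The third group, called untreated here, has its treatment labelled as none. All animals were labelled as 8 weeks old KKAy mice, so every group carries the obese, diabetic background, and no lean or non-diabetic mice were compared. Per the labels' protocols, both treatments were given into the peritoneum in 100 µL of the culture medium DMEM with a total of 40 µg/mL insulin, of which 11% was biomineralized in the BI solution. The same protocols describe a control injection of DMEM alone, randomised groups of 8 to 12 mice and, for every array but BI replicate 2, a chow with 34% fat. They do not say whether the untreated arrays come from the DMEM-injected controls, or whether an array holds 1 animal or a pool. The feeding protocol of BI replicate 2 speaks of rats, and this array was kept in its labelled group. The p-values below therefore rest on the variation among these arrays alone, part of which may be technical.

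NF-kB is a family of dimeric transcription factors that inhibitor proteins such as IkB alpha, the product of Nfkbia, hold in the cytoplasm. Toll-like receptors, acting through the adaptor Myd88, and the receptors of TNF and interleukin 1 activate the kinase IKK beta, encoded by Ikbkb, which marks these inhibitors for destruction. The freed dimers switch on cytokine, chemokine and adhesion genes, and also their own brakes, among them Nfkbia, Nfkbie and Tnfaip3. In liver, resident macrophages (Kupffer cells) are a main source of cytokines, hepatocytes answer interleukin 6 through STAT3 with acute phase proteins and Socs3, and low-grade inflammation of this kind is studied in obesity for its relation to insulin resistance.

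Values are log2 signals. The array medians lay between 6.11 and 6.30, and pairs of arrays correlated across probe sets at 0.911 to 0.920 within groups and at 0.909 to 0.921 between groups. The 8 hepatocyte markers lay above the median on all 9 arrays. So did 11 of 12 Kupffer cell and macrophage, 7 of 8 endothelial and 4 of 6 stellate cell markers. Fewer did so among neutrophil (2 of 8) and monocyte markers (1 of 4). Of the 9 T and NK cell, 5 dendritic cell, 3 B cell and 4 cholangiocyte markers 0 did. Signs and peaks of these last 4 lists therefore rest on low signals. Untreated replicate 2 stood apart in the genes described here, as shown further on. For each comparison with the untreated group, the counts of higher and lower genes and the median difference are therefore given with and without it. Values without it are also given for some single genes.

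Of the 36 genes, 20 lay above the array median on all 9 arrays, 4 lay below it on all 9, and 12 lay on both sides. Of all 18193 genes, 9722 lay above it on all 9 arrays, a like share, so the count of 20 does not set these genes apart. Among the cytokines, Il1b (6.49 to 7.87 over the 9 arrays) and Il18 (9.85 to 10.46), whose products are the pyrogenic interleukin 1 beta and the inflammasome-processed interleukin 18, were above the median throughout. Il6, the inducer of the hepatic acute phase response, ranged between 0.03 and 4.90. Il12b, the p40 chain shared by interleukins 12 and 23, ranged between 3.30 and 5.88, and Il23a, the p19 chain of interleukin 23, ranged between 0.81 and 6.17, and these 3 cytokines lay below the median on every array. Tnf, Il1a, Il10 and Il15 lay above the median on 1, 7, 1 and 5 arrays. The files hold no detection calls that were used, so a position below the median does not show that a transcript was missing.

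Above the median on all arrays were 2 of the 9 cytokines, 2 of the 3 receptor and antagonist genes, 1 of the 3 measured subunits, 4 of the 4 inhibitor and kinase genes and 6 of the 10 chemokines. Il1r1, the signalling receptor of interleukin 1, ranged between 10.12 and 12.05, and Il6ra, the interleukin 6 receptor, between 9.24 and 10.13. Il1rn, the interleukin 1 receptor antagonist, was above the median on 7 arrays. Of the subunits, Rela ranged between 10.75 and 11.07, whereas Nfkb2 and Relb, of the non-canonical pathway, were above the median on 4 and 3 arrays. All 4 inhibitor and kinase genes (Nfkbia, Nfkbie, Ikbkb and Tnfaip3, which encodes the ubiquitin-editing enzyme A20) were above it on every array, as were Tlr2, Myd88, the adhesion molecules Icam1 and Vcam1, and Socs3, an inhibitor of cytokine signalling. Tlr4, the endotoxin receptor, was above it on 8 arrays, and Ptgs2, the inducible cyclooxygenase, on 1. Among the 10 chemokines, Ccl4, the neutrophil attractant Cxcl1, the interferon-induced Cxcl9 and Cxcl10, Cxcl12 and Cxcl16 were above the median on all arrays. Cxcl2, a second neutrophil attractant, and the monocyte attractants Ccl2 and Ccl7 were above it on 5, 2 and 1 arrays, and Ccl3 was below it on all 9. In bulk liver, fewer cells of a type and less RNA per cell cannot be told apart in any of these values.

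**Figure D1:**
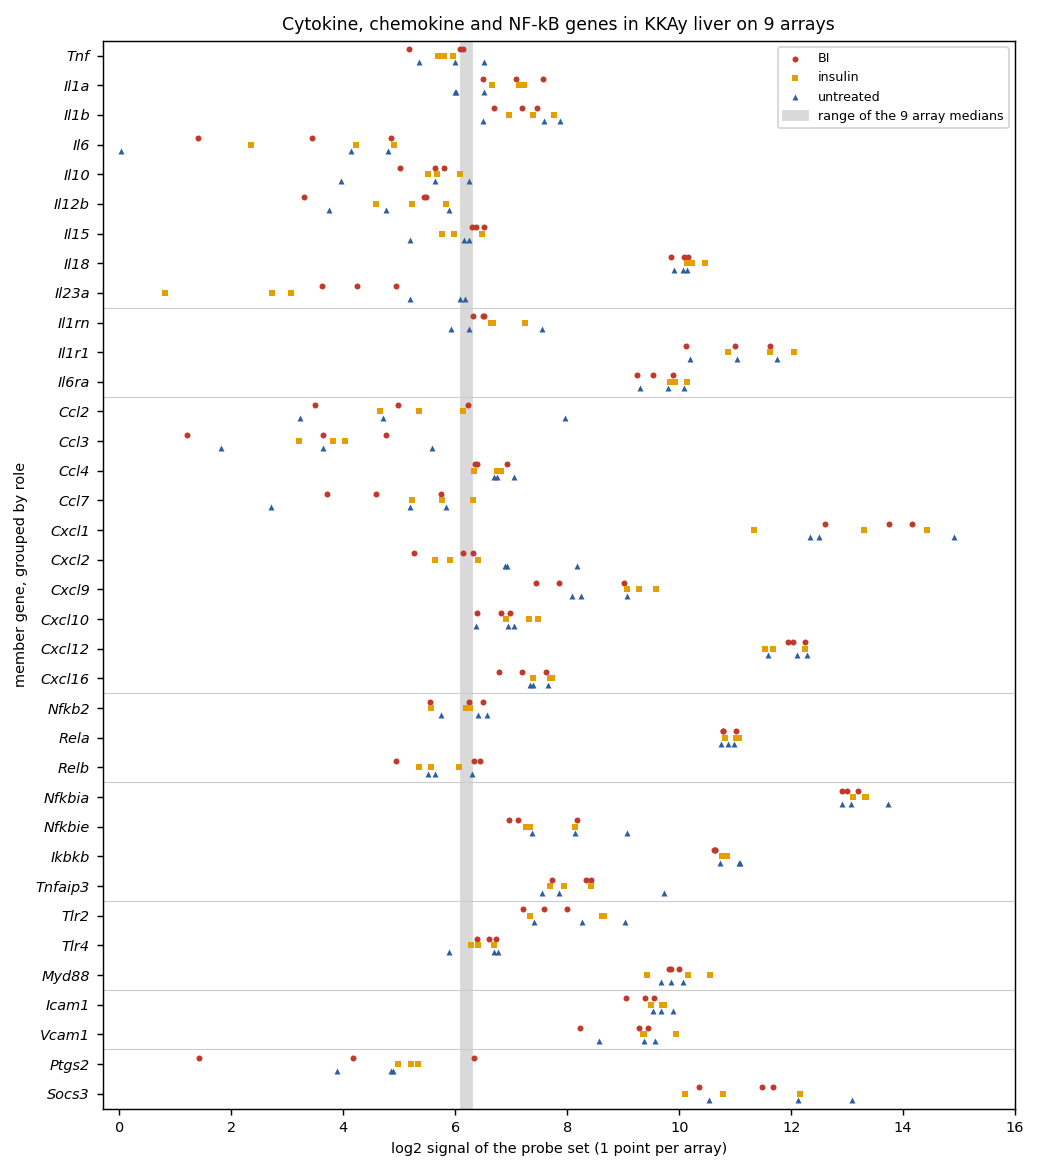
Log2 signal of the 36 measured genes on each of the 9 arrays (x axis), by role (y axis), with red circles for BI, orange squares for insulin and blue triangles for untreated arrays. The grey band is the range of the array medians, 6.11 to 6.30, and 20 genes lie to the right of it on every array.

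The genes differed widely in how far arrays of the same group lay apart. For the 20 genes above the median on every array, the median within-group SD was 0.34, against 0.21 for the 9722 genes of the whole set that met the same condition. Cxcl1 had 13.74, 14.16 and 12.61 in BI livers, 11.33, 13.30 and 14.43 in insulin livers, and 12.49, 14.90 and 12.34 in untreated livers. Its groups overlapped, and its within-group SD of 1.31 was above that of 99.9% of those 9722 genes. Socs3 had 11.47, 11.67 and 10.36 in BI livers, 10.10, 10.79 and 12.16 in insulin livers, and 12.13, 13.09 and 10.53 in untreated livers. Its SD of 1.04 was above that of 99.6%, with the lowest value in insulin replicate 1 and the highest in untreated replicate 2. The SDs of Tnfaip3 (0.75), Il1r1 (0.71), Nfkbie (0.68), Tlr2 (0.68), Cxcl9 (0.58), Il1b (0.53) and Vcam1 (0.52) were each above those of at least 96.0% of these genes. At the other end, Rela and Ikbkb each had an SD of 0.12, above 16.2% and 15.2% of them, and Il18 had 0.15. These are descriptions of 36 genes of differing signal strength, with no test.

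Many of the highest values fell on untreated replicate 2, a pattern picked out after the values were seen. This array held the highest of the 9 values for 13 of the 36 genes (36.1%) and for 9 of the 20 brighter ones (45%), against 13.2% of all 18193 genes and 15.0% of the 9722 brighter genes. The 13 genes were the chemokines Cxcl1, Cxcl2, Ccl2, Ccl4 and Cxcl12, the NF-kB inhibitors Nfkbia, Nfkbie and Tnfaip3, the receptors Tlr2 and Tlr4, Il1rn, Icam1 and Socs3. Some were highest by little: Tlr4 had 6.76 against 6.73 in BI replicate 1, and Cxcl12 had 12.29 against 12.25 in BI replicate 2. Ccl4 had 7.04 against 6.92 in BI replicate 1. On the same array 15.6% of all genes had their lowest value, as did 2 of the 36 (5.56%). Cxcl1, Socs3 and Il1rn were highest there by all 3 of their probe sets, and Nfkbia by 4 of its 5. Cxcl12 was highest there by 2 of its 3 probe sets, Tnfaip3 and Nfkbie by 1 of 2 each, and Tlr4 by 1 of 4.

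NF-kB inhibitors and some upstream or target genes showed the pattern, and others did not. The 23 genes not highest on untreated replicate 2 include Myd88, Il1r1, Ikbkb and Rela, and also Il1b, Tnf, Il6, Cxcl10 and Vcam1. Vcam1 had 9.56 there and 9.94 in insulin replicate 2, Myd88 had 10.06 there and 10.55 in insulin replicate 3. Rela had its lowest value, 10.75, on that array. Tnfaip3 had 8.33, 8.43 and 7.72 in BI livers, 7.70, 7.95 and 8.43 in insulin livers, and 7.54, 9.73 and 7.86 in untreated livers, so that untreated replicate 2 lay 1.29 above the next array while the other 2 untreated arrays lay within the range of the treated groups or below it. Nfkbie, the inhibitor IkB epsilon, had 8.18, 6.96 and 7.12 in BI livers, 7.33, 7.26 and 8.13 in insulin livers, and 8.13, 9.07 and 7.37 in untreated livers. The groups overlapped, and untreated replicate 2 lay 0.89 above the next array. Nfkbia had 13.73 on this array and between 12.90 and 13.34 on the 8 others. Tlr2, which recognises bacterial lipoproteins, had 7.99, 7.59 and 7.21 in BI livers, 7.33, 8.62 and 8.65 in insulin livers, and 8.27, 9.04 and 7.40 in untreated livers, and its groups overlapped. Ccl2 had 6.22, 4.97 and 3.50 in BI livers, 5.35, 6.13 and 4.65 in insulin livers, and 3.23, 7.96 and 4.71 in untreated livers, where the untreated group held both the highest and the lowest value.

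Other genes of the pathway peaked on the same array. Of 117 measured pathway genes outside the 36, 39 (33.3%) were highest there. By list these were 8 of 15 acute phase genes, 9 of 24 other cytokines and chemokines and 6 of 21 other NF-kB genes. The rest were 6 of 14 other induced and inflammasome genes, 4 of 11 chemokine receptors and 6 of 32 other receptors and adaptors. The share of the receptors and adaptors, 18.8%, was the nearest to the 13.2% of all genes. Their median deviation on this array from the mean of the 8 other arrays was -0.04. Cd14, the co-receptor that hands endotoxin to Tlr4, had 12.03 on this array and 9.86 on the next highest. Saa3, an acute phase gene induced through NF-kB, had 14.27 there and between 10.16 and 12.14 on the 8 other arrays. The alarmin Il33 had 9.16 there and at most 7.90 elsewhere. Of the other cell types, 5 of 8 measured neutrophil markers were highest on this array, with a mean of 7.98 against 6.28 to 7.15 elsewhere, S100a8 at 12.74 against at most 11.61 and S100a9 at 11.29 against at most 9.74. So were 2 of 4 monocyte markers (mean 8.50) and 4 of 12 Kupffer cell and macrophage markers, but none of 9 T and NK cell, 3 B cell, 8 endothelial or 6 stellate cell markers. The array was also highest for 2 of 4 cholangiocyte, 1 of 5 dendritic cell and 1 of 8 hepatocyte markers. No T and NK cell, B cell, dendritic cell or cholangiocyte marker lay above the median on all 9 arrays. The part of these cell types in the values of the 36 genes was not tested. BI replicate 3 most often held the lowest value, for 9 of the 36 genes (25.0%) and 8 of the 20 brighter ones (40.0%). The shares were 10.0% of all genes and 10.6% of the 9722 brighter genes. Untreated replicate 1 was lowest for 8 of the 36 (22.2%) and 3 of the 20 brighter ones (15.0%). Of the 117 other pathway genes, BI replicate 3 was lowest for 22 (18.8%) and highest for 19 (16.2%). BI replicate 3 also had the lowest mean of the Kupffer cell (9.27), monocyte (6.81) and neutrophil (6.28) markers.

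**Figure D2:**
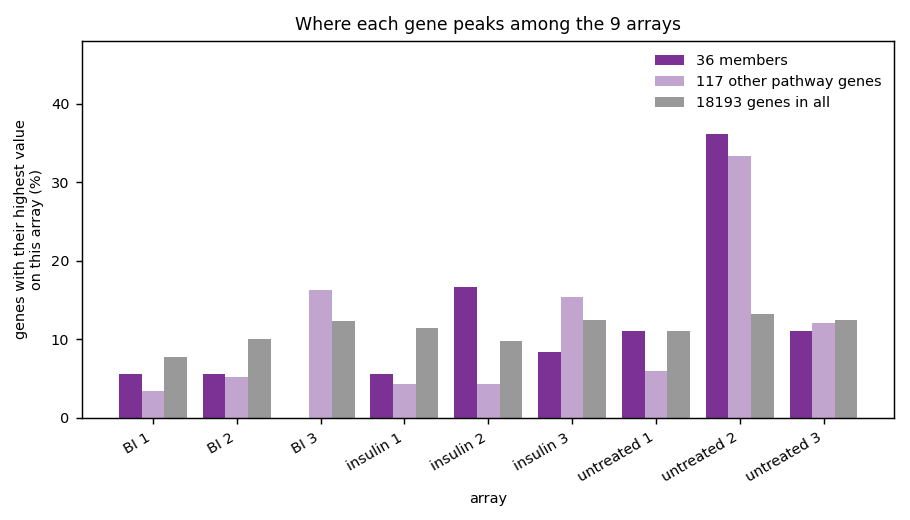
Share of genes whose highest value among the 9 arrays fell on each array (bars, percent, axis starting at 0), for the 36 genes, the 117 other pathway genes and all 18193 genes. Untreated replicate 2 holds 36.1% and 33.3% of the first and second sets, against 13.2% of all genes.

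**Figure D3:**
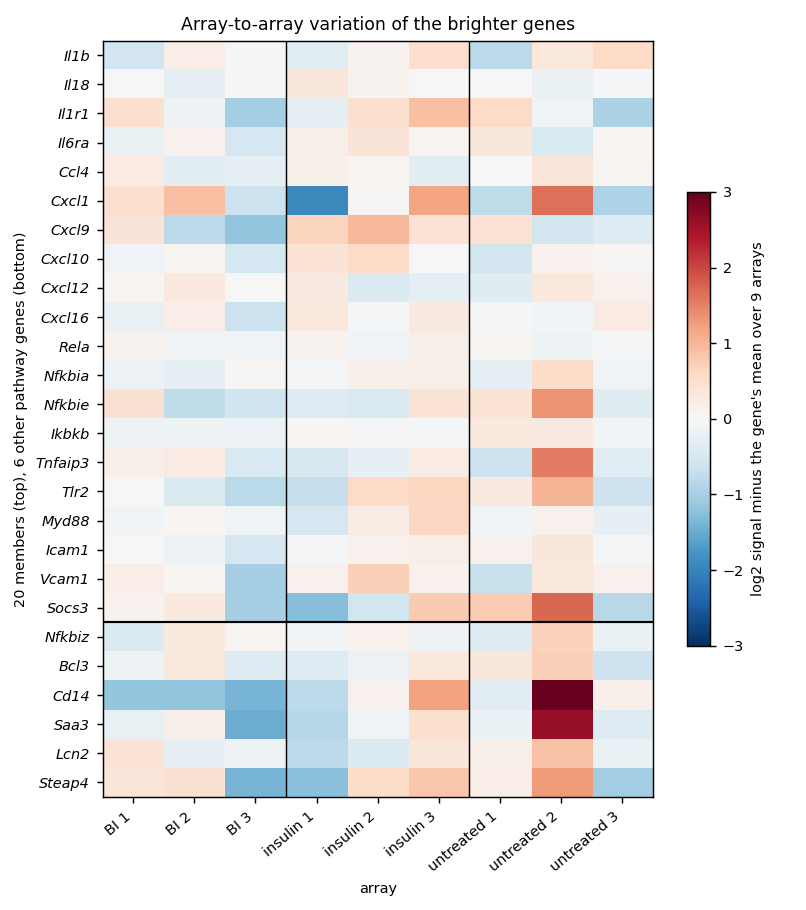
Deviation of each gene from its own mean over the 9 arrays (colour, log2, red above and blue below; values past 3 take the end colour) for the 20 brighter genes and, under the thick line, 6 other pathway genes (Cd14, Saa3, Lcn2, Steap4, Nfkbiz and Bcl3). These 6 were picked for being high on untreated replicate 2, where 39 of the 117 other pathway genes were highest. Columns are arrays, with BI at the left, insulin in the middle and untreated at the right. The column of untreated replicate 2 is red for Cxcl1, Nfkbie, Tnfaip3, Tlr2 and Socs3. It is red for all 6 lower genes by the way they were picked.

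The upstream sequences of genes that peaked on untreated replicate 2 are shown because NF-kB acts on its target genes by binding a DNA consensus called kappaB, which can be looked for in them. Those shown were chosen for holding a kappaB match, and Socs3 for its STAT match. RefSeq sequences of mouse build GRCm38.p6 gave 31 windows of 250 bases upstream of annotated starts for 25 of the 36 genes. Both strands were searched for the 10-base kappaB consensus and for the STAT motif TTCNNNGAA, where N is any base. A kappaB match was present in 12 of the 31 windows (38.7%), of 10 genes, against 3.90% of 32851 mouse windows of the same length. The 36 genes were listed for inflammatory signalling, with targets of NF-kB among them, so this share cannot be read as a finding of these data. Some windows also belong to the same gene. A STAT match was present in 4 of the 31 windows (12.9%), against 7.02% of all windows. Of the 13 genes that peaked on untreated replicate 2, 10 had a window, and 6 of these 10 held a kappaB match (Cxcl1, Cxcl2, Nfkbia, Nfkbie, Tnfaip3 and Tlr2), in Tnfaip3 at 1 of its 2 starts, while Il1rn, Cxcl12, Icam1 and Socs3 held none. Of the genes that did not peak there, 15 had a window, and 4 of these 15 held a match (Il6, Il1r1, Cxcl10 and Nfkb2). The genes that peaked there were picked from the values, so this split is a description with no test. Only full matches were counted, so a window without one can hold a near match, as that of Icam1 does. The counted matches describe letters and not occupied sites, and their relation to the peaks was not tested. In the sequences below, read 5′ to 3′ on the strand of the gene and ending at the base before its annotated start, capitals mark the kappaB match, or in Socs3 the STAT match. Overlapping matches are merged into one run of capitals.
Cxcl1 (chr5:90890995-90891244, plus strand): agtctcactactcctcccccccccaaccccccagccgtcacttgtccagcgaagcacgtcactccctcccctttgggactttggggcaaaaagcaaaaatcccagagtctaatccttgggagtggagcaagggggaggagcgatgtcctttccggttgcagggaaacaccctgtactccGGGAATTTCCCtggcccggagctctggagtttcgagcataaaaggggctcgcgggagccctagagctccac
Cxcl2 (chr5:90903649-90903898, plus strand): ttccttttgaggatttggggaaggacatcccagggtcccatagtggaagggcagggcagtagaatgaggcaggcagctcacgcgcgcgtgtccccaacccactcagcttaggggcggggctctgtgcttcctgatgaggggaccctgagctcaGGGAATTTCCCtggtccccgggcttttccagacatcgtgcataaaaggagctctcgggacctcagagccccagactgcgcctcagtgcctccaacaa
Nfkbia (chr12:55492648-55492897, minus strand): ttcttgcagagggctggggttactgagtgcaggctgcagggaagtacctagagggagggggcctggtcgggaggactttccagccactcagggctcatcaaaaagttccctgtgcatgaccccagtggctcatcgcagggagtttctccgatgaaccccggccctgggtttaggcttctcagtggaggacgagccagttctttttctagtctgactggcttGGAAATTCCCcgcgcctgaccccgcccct
Tnfaip3 (chr10:19015411-19015660, minus strand): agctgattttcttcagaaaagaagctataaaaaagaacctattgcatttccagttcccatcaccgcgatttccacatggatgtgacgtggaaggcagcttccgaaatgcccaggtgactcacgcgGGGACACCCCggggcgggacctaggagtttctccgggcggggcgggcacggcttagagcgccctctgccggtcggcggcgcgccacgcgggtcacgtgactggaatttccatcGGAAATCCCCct
Tlr2 (chr3:83841609-83841858, minus strand): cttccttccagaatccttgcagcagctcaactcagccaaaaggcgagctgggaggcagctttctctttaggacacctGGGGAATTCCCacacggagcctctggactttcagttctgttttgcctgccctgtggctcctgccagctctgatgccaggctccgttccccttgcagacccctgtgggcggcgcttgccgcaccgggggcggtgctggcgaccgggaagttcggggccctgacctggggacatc
Socs3 (chr11:117969367-117969616, minus strand): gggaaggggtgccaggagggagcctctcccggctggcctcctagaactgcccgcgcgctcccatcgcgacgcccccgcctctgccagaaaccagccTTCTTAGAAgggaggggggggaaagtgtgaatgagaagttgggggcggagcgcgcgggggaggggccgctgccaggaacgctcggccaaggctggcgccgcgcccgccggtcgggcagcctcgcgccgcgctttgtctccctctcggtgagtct
Cxcl1 and Cxcl2, neighbours on chromosome 5, carry overlapping kappaB matches on both strands, whose bases run from -71 to -61 and from -97 to -87 before the start. The Nfkbia match covers -29 to -20. Tnfaip3 has matches at -125 to -116 and at -12 to -3, and Tlr2 at -173 to -163. No kappaB match lies in the Socs3 window, which holds the STAT match at -154 to -146.

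**Figure D4:**
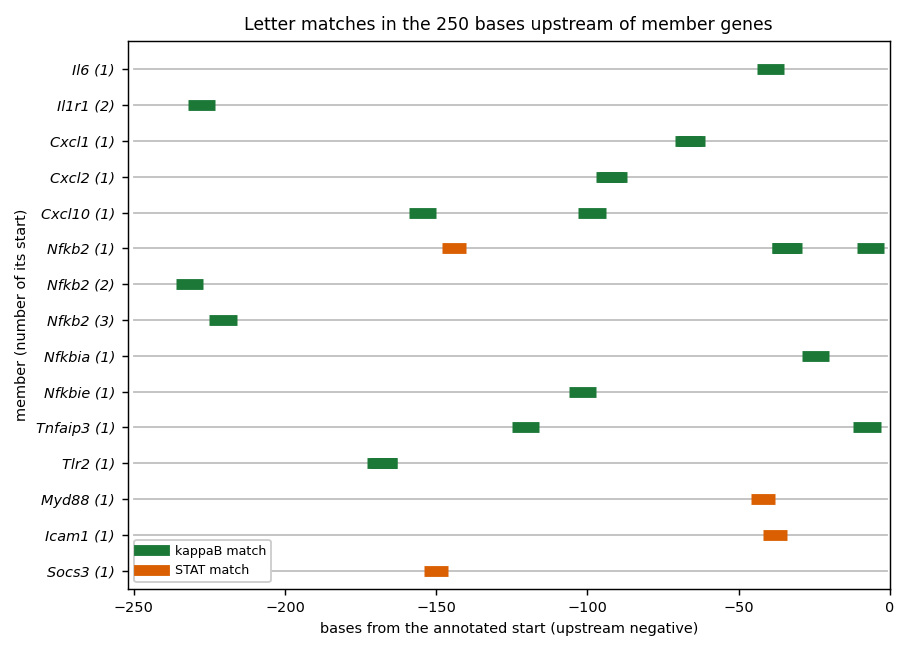
Positions of kappaB (green) and STAT (orange) letter matches in windows of 250 bases upstream of annotated starts (x axis, bases from the start), 1 line per window that holds a match, with the number of the gene's start in brackets. Matches fall in 10 genes for kappaB and 4 genes for STAT and are spread over the whole window.

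The comparison of BI with untreated livers asks whether these genes differed after the partly biomineralized BI solution. With limma, fitted over all 45037 probe sets, 0 of the 36 genes passed the adjusted threshold of 0.05, where 0.0111% of all probe sets did. Higher values in BI livers were estimated for 11 genes and lower values for 25, with a median log2 difference of -0.17, against 0.00 over all genes. At an unadjusted p under 0.05 there were 3 genes (8.33%), 1 higher and 2 lower, where 3.90% of all genes met this level. BI and untreated values did not overlap for 4 genes (11.1%), 1 higher and 3 lower, where 9.36% of all genes did not, 4.84% higher and 4.52% lower. Without untreated replicate 2 the split was 15 higher and 21 lower with a median of -0.06, and without BI replicate 3 it was the same, with a median of -0.05. Without BI replicate 2, the array with the rat protocol, it was 8 higher and 28 lower with a median of -0.28. No gene passed in any of these fits. Among markers of other cell types, estimates were negative for 6 of 8 endothelial (median -0.19), 7 of 12 Kupffer cell and macrophage (median -0.07), 5 of 8 neutrophil (median -0.30) and all 4 cholangiocyte markers (median -0.46), and positive for 7 of 9 T and NK cell markers (median 0.40). The cholangiocyte and the T and NK cell signs rest on low signals, with a median interval half-width of 1.28 and 1.47. The part of all these markers in the estimates of the 36 genes was not tested.

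The gene of smallest p was Cxcl2. It had 6.32, 5.27 and 6.13 in BI livers, 5.90, 6.40 and 5.63 in insulin livers, and 6.89, 8.17 and 6.93 in untreated livers. Every BI and every insulin value lay below every untreated one, and untreated replicate 2 was the highest. The BI minus untreated difference was -1.42 ± 0.44 (SE, 95% interval -2.46 to -0.39), with a limma adjusted p of 0.999. Without untreated replicate 2 it was -1.0 ± 0.38, with a limma adjusted p of 1.

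Il1a, which encodes interleukin 1 alpha, an alarmin released by damaged cells, differed in the other direction. It had 7.57, 6.49 and 7.09 in BI livers, 7.23, 6.66 and 7.14 in insulin livers, and 5.99, 6.52 and 6.02 in untreated livers. BI replicate 2 lay just below untreated replicate 2, so that these groups overlapped, whereas insulin and untreated values did not. The BI minus untreated difference was 0.88 ± 0.32 (95% interval 0.13 to 1.63), with a limma adjusted p of 0.999. It was 1.16 ± 0.30 without BI replicate 2, with a limma adjusted p of 0.744.

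Il23a was the gene with the widest group differences on the log2 scale, all at low signal. It had 3.62, 4.25 and 4.95 in BI livers, 0.81, 2.72 and 3.07 in insulin livers, and 6.08, 5.19 and 6.17 in untreated livers. The 3 groups did not overlap, with insulin lowest and BI between. The BI minus untreated difference was -1.54 ± 0.64 (95% interval -3.03 to -0.04), with a limma adjusted p of 0.999. All of these values lie under the array median, and with values below 6 set to 6 the difference was -0.08.

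The 3 other genes of smallest p differed by less. Ikbkb had 10.64, 10.64 and 10.62 in BI livers, 10.86, 10.77 and 10.77 in insulin livers, and 11.08, 11.07 and 10.72 in untreated livers. BI values were below all others, and the BI minus untreated difference was -0.32 ± 0.16 (95% interval -0.70 to 0.05, limma adjusted p = 0.999). Of its 5 probe sets, 3 had negative and 2 had positive estimates, and their mean gave 0.06. Icam1, through which leukocytes adhere to endothelium, had 9.55, 9.38 and 9.05 in BI livers, 9.49, 9.69 and 9.73 in insulin livers, and 9.68, 9.89 and 9.53 in untreated livers. BI replicate 1 reached just above the lowest untreated array, and the difference was -0.38 ± 0.20 (95% interval -0.83 to 0.08, limma adjusted p = 0.999). Without BI replicate 3 it was -0.24. Il15, a cytokine that maintains natural killer cells, had 6.52, 6.29 and 6.37 in BI livers, 5.77, 5.97 and 6.48 in insulin livers, and 6.25, 6.15 and 5.20 in untreated livers. BI values lay above all untreated ones, with BI replicate 2 close to untreated replicate 1, and the difference was 0.52 ± 0.32 (95% interval -0.23 to 1.28, limma adjusted p = 0.999). It was 0.19 without untreated replicate 3, the lowest array.

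By role, the 4 inhibitor and kinase genes and the 3 receptor and antagonist genes all had negative estimates in BI against untreated livers, -0.77 to -0.20 and -0.18 to -0.08. Of the 10 chemokines 7 were negative, and of the 9 cytokines 4. These signs were not stable: other probe sets gave positive estimates for Il1rn (0.32), Il1r1 (2.0), Il6ra (0.61) and Nfkbie (0.09), and without untreated replicate 2 the estimates were 0.05 for Nfkbia, 0.46 for Tnfaip3 and 0.35 for Il1rn. The estimates of several response genes shifted when untreated replicate 2 was left out. Cxcl1 differed by 0.26 ± 0.97 with it and by 1.09 ± 0.91 without it, Tnfaip3 by -0.22 ± 0.56 and by 0.46 ± 0.32, Nfkbie by -0.77 ± 0.52 and -0.33 ± 0.48, Socs3 by -0.75 ± 0.77 and -0.17 ± 0.78. None of these intervals excluded 0.

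The comparison of insulin with untreated livers asks the same of plain insulin. It shares the untreated arrays with the comparison above, so the 2 are not independent. With limma 0 of the 36 genes passed the adjusted threshold, as did 0% of all 45037 probe sets. Estimates were higher in insulin livers for 22 genes and lower for 14, with a median of 0.06, against 0.02 over all genes. At an unadjusted p under 0.05 there were 3 genes (8.33%), 1 higher and 2 lower, against 3.87% of all genes. Insulin and untreated values did not overlap for 5 genes (13.9%), where 9.23% of all genes did not. Il1a, Cxcl9 and Ptgs2 were the 3 higher ones, against 5.74% of all genes, and Il23a and Cxcl2 the 2 lower ones, against 3.48%. Without untreated replicate 2 the split was 24 to 12 with a median of 0.18. Markers of several other cell types were also higher in estimate in insulin livers, 7 of 8 endothelial (median 0.32), 9 of 12 Kupffer cell and macrophage (median 0.22) and 7 of 9 T and NK cell markers (median 0.47), while 5 of 8 neutrophil (median -0.24) and all 4 cholangiocyte markers (median -0.21) were lower. The T and NK cell and the cholangiocyte signs again rest on low signals. The part of all these markers in the estimates of the 36 genes was not tested.

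Il23a had the smallest p of the 36 genes, with an insulin minus untreated difference of -3.61 ± 0.64 (95% interval -5.11 to -2.11, limma adjusted p = 0.633). Its adjusted p lay between 0.406 and 0.712 when single arrays were left out, and the difference between -4.04 and -2.92. With values below 6 set to 6 it was -0.08. Cxcl2 differed by -1.35 ± 0.44 (95% interval -2.38 to -0.32, limma adjusted p = 1), and by -0.93 ± 0.38 without untreated replicate 2 (95% interval -1.85 to -0.01). Il1a differed by 0.83 ± 0.32 (95% interval 0.09 to 1.58, limma adjusted p = 1), and by 1.01 ± 0.35 without that array.

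The interferon-induced chemokines that attract T cells through the receptor Cxcr3 had higher estimates in insulin livers. Cxcl9 had 9.02, 7.85 and 7.44 in BI livers, 9.29, 9.59 and 9.07 in insulin livers, and 9.06, 8.08 and 8.24 in untreated livers. All insulin values were above all others, with insulin replicate 3 just above untreated replicate 1, and the insulin minus untreated difference was 0.85 ± 0.45 (95% interval -0.19 to 1.90, limma adjusted p = 1). Its second probe set gave 0.79 ± 0.40. Cxcl10 had 6.81, 6.98 and 6.38 in BI livers, 7.32, 7.48 and 6.90 in insulin livers, and 6.37, 7.04 and 6.94 in untreated livers. Insulin replicate 3 fell among the untreated values, and the difference was 0.45 ± 0.27 (95% interval -0.19 to 1.08, limma adjusted p = 1). Without untreated replicate 1 it was 0.24. Ccl7 had 3.71, 4.59 and 5.75 in BI livers, 5.77, 6.32 and 5.23 in insulin livers, and 5.84, 5.20 and 2.70 in untreated livers, and its groups overlapped. The difference of 1.19 ± 0.86 (95% interval -0.82 to 3.21, limma adjusted p = 1) was 0.25 without untreated replicate 3. Ptgs2 had 1.43, 6.33 and 4.17 in BI livers, 5.21, 4.98 and 5.34 in insulin livers, and 4.85, 4.89 and 3.88 in untreated livers. Its insulin and untreated values did not overlap, and all of them lay below the array median. The insulin minus untreated difference was 0.64 ± 1.07. Its SE uses a spread pooled over the 3 groups, and the SD was 2.45 in BI, 0.18 in insulin and 0.57 in untreated livers. The second probe set of the gene gave -1.64 ± 1.15.

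**Figure D5:**
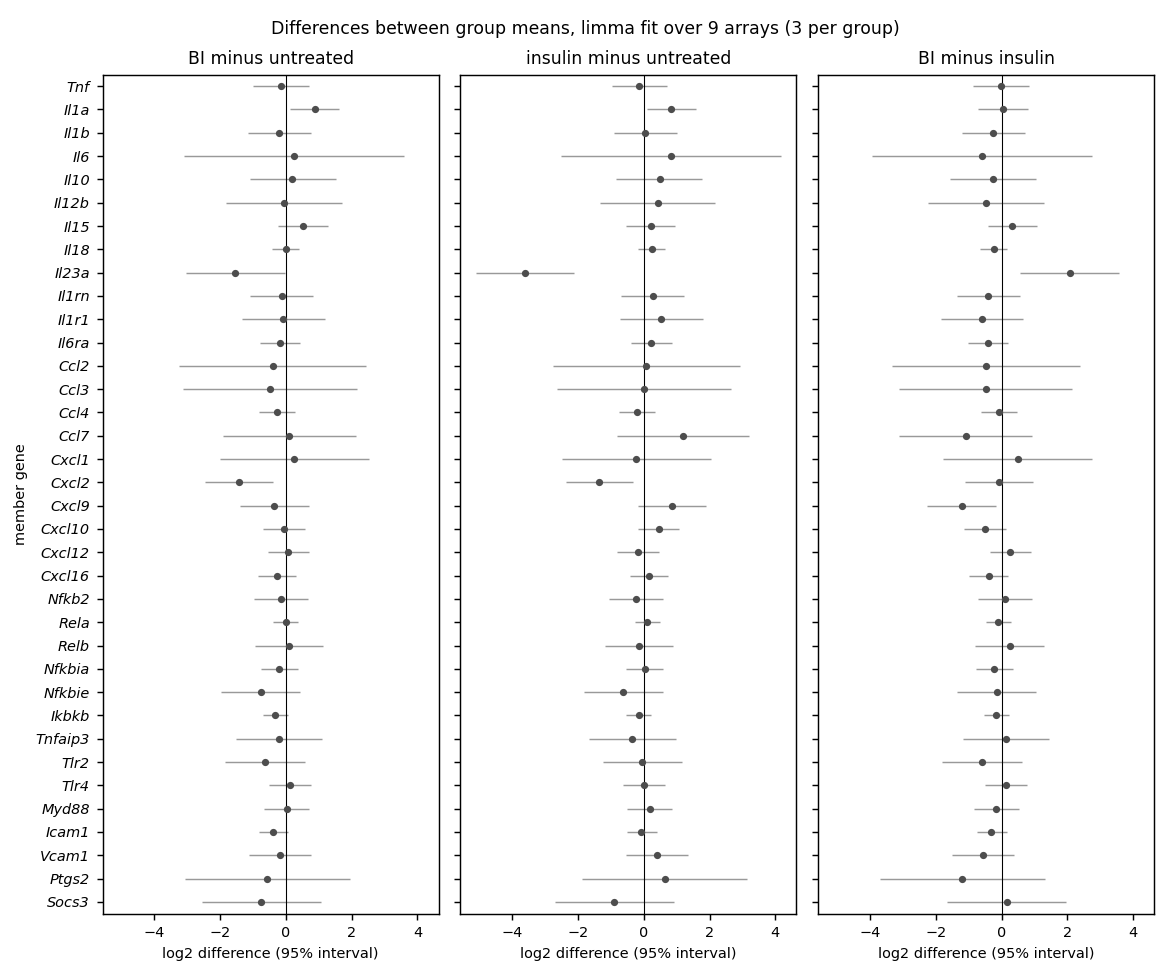
Log2 differences of group means (points) with 95% intervals (lines) from limma for the 36 genes, for BI minus untreated, insulin minus untreated and BI minus insulin; the vertical line is 0. The intervals of Il1a, Il23a and Cxcl2 leave out 0 in the left and middle panels and those of Il23a and Cxcl9 in the right panel, before adjustment, and no gene passed after it.

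The comparison of BI with insulin livers asks whether the BI solution differed from plain insulin at the same total concentration. Only 11% of the insulin in that solution was biomineralized, so a mixture is compared and not the biomineralized form alone. With limma 0 of the 36 genes and 0% of the probe sets passed the adjusted threshold. Estimates were higher in BI livers for 10 genes and lower for 26, with a median of -0.23, against -0.03 over all genes. At an unadjusted p under 0.05 there were 2 genes, 1 in each direction, against 3.44% of all genes. The groups did not overlap for 4 genes (11.1%), where 9.88% of all genes did not. Il23a was the 1 higher (4.20% of all genes), and Cxcl9, Ikbkb and Il1rn were the 3 lower (5.68%). Without BI replicate 3, which was lowest for many of these genes, the split was 14 to 22 with a median of -0.16.

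Il23a differed by 2.07 ± 0.64 between BI and insulin livers (95% interval 0.57 to 3.57, limma adjusted p = 1). It was 1.38 without insulin replicate 1, and all values of both groups lay below 6. Cxcl9 differed by -1.21 ± 0.45 (95% interval -2.26 to -0.17, limma adjusted p = 1), by -0.88 ± 0.45 without BI replicate 3, and its second probe set by -0.48 ± 0.40. Cxcl10 differed by -0.51 ± 0.27 (95% interval -1.15 to 0.13), with BI replicate 2 above insulin replicate 3, and by -0.34 without BI replicate 3. Ikbkb differed by -0.17 ± 0.16, with no overlap, and the mean of its 5 probe sets by 0.29. Icam1 differed by -0.31 ± 0.20 (95% interval -0.76 to 0.15), and by -0.17 without BI replicate 3.

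Cxcl16, the membrane-bound ligand of Cxcr6, had 7.20, 7.62 and 6.78 in BI livers, 7.73, 7.38 and 7.70 in insulin livers, and 7.38, 7.33 and 7.66 in untreated livers. BI replicate 2 lay among the insulin values, and the BI minus insulin difference was -0.40 ± 0.25 (95% interval -0.98 to 0.18, limma adjusted p = 1). It was -0.19 without BI replicate 3, and the second probe set gave -0.11. Il6ra had 9.53, 9.88 and 9.24 in BI livers, 9.93, 10.13 and 9.84 in insulin livers, and 10.09, 9.30 and 9.80 in untreated livers. BI replicate 2 again reached the insulin range, and the difference was -0.41 ± 0.26 (95% interval -1.03 to 0.20, limma adjusted p = 1). It was -0.26 without BI replicate 3, the second probe set of the gene gave 0.17, and the mean of both gave -0.12.

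Markers of some other cell types were also lower in estimate in this comparison, and those of others were divided. All 12 Kupffer cell and macrophage markers had negative estimates (median -0.29) and so had all 8 endothelial markers (median -0.38), with the endothelial groups not overlapping for 4 of them, and 7 of 8 neutrophil and 3 of 4 monocyte markers. Signs were divided in T and NK cell (4 of 9 positive, median -0.15), dendritic cell (2 of 5, median -0.29), stellate cell (2 of 6, median -0.21), cholangiocyte (1 of 4, median -0.27) and B cell markers (2 of 3, median 0.09), and 5 of 8 hepatocyte markers were positive (median 0.02). No marker passed the adjusted threshold. Summed as a mean log2 level per array, the Kupffer cell markers lay between 9.27 and 10.31 in BI livers, 9.88 and 10.30 in insulin livers, and 9.64 and 10.11 in untreated livers. The endothelial mean lay between 8.18 and 8.52 in BI livers, 8.48 and 9.06 in insulin livers, and 7.98 and 8.94 in untreated livers. The arrays of these groups also differed in a sign of RNA quality, the log2 signal of the 3′ minus the 5′ control probe set of Gapdh, which was 0.39, 0.26 and 0.42 in BI livers and 0.55, 0.54 and 0.48 in insulin livers, with no overlap, and 0.28, 0.31 and 0.65 in untreated livers. The part of the cell markers and of this control in the lower estimates of the cytokine, chemokine and NF-kB genes was not tested.

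Several genes have more than 1 probe set, and these did not always share a direction. Among the 17 such genes, estimates of differing sign occurred for 12 in BI against untreated, for 9 in insulin against untreated and for 11 in BI against insulin livers. None of these probe sets passed the adjusted threshold in limma. Over the 3 groups together, the F test of limma gave 0.644 as the smallest adjusted p of the 36 genes.

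The wider pathway was described through 124 further genes, of which 117 were measured: other NF-kB genes, receptors and adaptors, cytokines and chemokines, chemokine receptors, inflammasome and induced genes, and acute phase genes. None passed the adjusted threshold in limma in any comparison. At an unadjusted p under 0.05 there were 0 higher and 1 lower in BI against untreated, 3 higher and 1 lower in insulin against untreated, and 0 higher and 2 lower in BI against insulin livers. These were 0.855%, 3.42% and 1.71% of the 117 genes, below the 3.90%, 3.87% and 3.44% of all genes that met this level. The 4 of smallest p in BI against untreated livers were Cd14 (-2.32 ± 0.96), the chemokine Ccl6 (-0.82 ± 0.35), lymphotoxin beta, Ltb (-1.78 ± 0.82), and the prostaglandin synthase Ptges (1.24 ± 0.60). Cd14 had 7.49, 7.48 and 7.25 in BI livers, 7.87, 8.78 and 9.86 in insulin livers, and 8.32, 12.03 and 8.81 in untreated livers, so that all BI values were below all others. The 12.03 of untreated replicate 2, for which Cd14 was picked out above, raises the untreated mean and so widens this difference. In insulin against untreated livers they were the chemokine receptors Ccr7 (1.86 ± 0.57), Ccr2 (-0.54 ± 0.19) and Cxcr3 (0.64 ± 0.27), and Ptges (1.43 ± 0.60). In BI against insulin livers they were the interleukin 10 receptor Il10ra (-1.0 ± 0.39), the NF-kB subunit Rel (-1.04 ± 0.44), the inflammasome adaptor Pycard (-0.79 ± 0.37) and Tlr8 (1.16 ± 0.55).

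Whether genes of like role varied together over the arrays was examined for 6 pairs, with exact two-sided permutation tests on 9 arrays and Benjamini-Hochberg adjustment over the 6. None passed. Nfkbia and Tnfaip3 gave r = 0.71 (exact permutation p = 0.0458, adjusted 0.243) and rho = 0.43 (exact permutation p = 0.25, adjusted 0.582). Without insulin replicate 3 and untreated replicate 2, the arrays farthest from the median, r was -0.26, so the relation rested on those arrays. Icam1 and Vcam1 gave r = 0.62 (exact permutation p = 0.0809, adjusted 0.243) and rho = 0.73 (exact permutation p = 0.0311, adjusted 0.187), with r = -0.02 without BI replicate 3 and untreated replicate 2. Cxcl9 and Cxcl10 gave r = 0.47 (exact permutation p = 0.202, adjusted 0.404) and rho = 0.40 (exact permutation p = 0.291, adjusted 0.582), with r = 0.27 without BI replicates 2 and 3. After subtraction of each group mean, r was 0.80 for Nfkbia and Tnfaip3, 0.67 for Icam1 and Vcam1, and 0.01 for Cxcl9 and Cxcl10. The r of Cxcl1 and Cxcl2 was 0.15, of Ccl2 and Ccl7 -0.09 and of Ccl3 and Ccl4 -0.08, with exact permutation p-values of 0.699, 0.803 and 0.840. Their rho was -0.08, -0.23 and -0.20, with exact permutation p-values of 0.843, 0.552 and 0.613. Each was adjusted to 0.840 for r, and to 0.843, 0.736 and 0.736 for rho. Without the 2 arrays farthest from the median, r was -0.84, -0.04 and -0.71.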

How the data were processed

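Gene expression on 9 liver arrays was read from the deposited log2 signals per probe set. The authors had processed these before deposit, with software and normalization not given in the sources used here. Each array showed a floor of exactly 0 and a 2% trimmed mean of 500.004 on the linear scale, so values were used as deposited. After 64 control probe sets were set aside, 45037 entered limma 3.58.1 (R 4.3.3): 1 fit of all 9 arrays, group as the only factor, eBayes without trend, 6 residual degrees of freedom, two-sided, Benjamini-Hochberg over all probe sets, threshold 0.05. The test was tried on simulated data with known changes. Gene names came from the platform annotation, promoter sequences and gene names from RefSeq (GRCm38.p6).

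The genes, lists and tests were chosen with earlier results of these data known. The naming rule was that each comparison gives the values of the 6 genes of smallest p, plus brighter genes (above the array median on all 9 arrays) whose groups do not overlap, and the 4 other pathway genes of smallest p. The genes named for their highest array were picked from the values. With 3 arrays a group, the 95% interval had a median half-width of 0.96 for the 36 genes and 0.72 for all genes. Deviations from group means were checked for a link between same-numbered arrays. Alternatives were leaving out each array, a floor at 6, a filter on dim probe sets, equal array medians, quantile normalization, the replicate block, fits of only the groups compared, trended and robust variances, and a gene's probe sets averaged.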

Additional observations from a re-analysis of the deposited data

How the results depend on the processing

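The 36 genes had 0 calls in each comparison under every alternative run, with 0.406 as the smallest adjusted p in limma (Il23a, insulin against untreated). Their median difference lay between -0.28 and -0.01 in BI against untreated, between -0.03 and 0.18 in insulin against untreated and between -0.31 and -0.11 in BI against insulin livers, so that in insulin against untreated it crossed 0, with a floor at 6 (-0.02) among the settings that did so. Over all probe sets, BI against untreated had 5 calls as reported, 1 with the filter on dim probe sets, 0 with the floor at 6, 0 in a fit of only these groups, and 0 to 2 when single arrays were left out. BI against insulin had 0 calls as reported, 1 with the filter and 0 to 1 when single arrays were left out. The mean of its probe sets turned the sign of Ikbkb to 0.06 in BI against untreated and to 0.29 in BI against insulin livers. The r of Ccl3 and Ccl4 turned to 0.01 under quantile normalization. When single arrays were left out, the r of Ccl3 and Ccl4 lay between -0.49 and 0.23, that of Ccl2 and Ccl7 between -0.28 and 0.05 and that of Cxcl1 and Cxcl2 between -0.48 and 0.36. The single values of turned sign were 0.10 without BI replicate 2 and 0.23 without untreated replicate 2 for Ccl3 and Ccl4, 0.02, 0.01 and 0.05 without BI replicate 1, BI replicate 3 and untreated replicate 1 for Ccl2 and Ccl7, and -0.48 without untreated replicate 2 for Cxcl1 and Cxcl2. The cause was not tested. The filter left 26 of the 36 genes, and under the floor Il23a gave no value in BI against insulin livers, since both groups lay at the floor.

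Replicate numbers did not pair the arrays: deviations of same-numbered arrays correlated between -0.159 and 0.147, those of other arrays between -0.147 and 0.156, and 3 of 9 arrays correlated best with their own number. With the replicate block, BI against untreated had 0 calls among all probe sets.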
